A study of Drosophila melanogaster with 4 samples.

Results

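H3K27ac, acetylation of lysine 27 of histone H3, was compared between neuroblast nuclei of Cut knockdown embryos and of control embryos of Drosophila melanogaster. The material was the pair of deposited broad peak lists for this mark, 26235 peaks in the control against 25770 in the knockdown, together 52005 of the 75208 peaks of the series. Both groups carried wor-gal4 and UAS-dsRed, a driver that is active in the nervous system from stage 11 and the red fluorescent protein it switches on. One group was labelled as the Cut knockdown and the other as its control. Collections spanned 16 h at 25 °C, the embryos were fixed, and fluorescent nuclei were sorted. The sort kept 0.5 to 3% of all nuclei with a purity of at least 50%, so nuclei of other cell types can contribute to every value below. There was 1 library per group. All values therefore describe these 2 libraries, no test between the conditions was possible, and intervals on shares cover counting error only.

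H3K27ac is laid down by the acetyltransferase CBP/p300, called nejire in the fly. It marks nucleosomes that flank active promoters and enhancers, and it blocks methylation of the same residue by the Polycomb enzyme E(z). Broad acetylated stretches inside long genes often hold enhancers, whereas genes that all cells use are mostly acetylated next to their start. Cut is a homeodomain transcription factor of sensory organs and neurons. The series profiled chromatin in neuroblasts, the neural stem cells of the fly.

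After 294 and 251 peaks on the Y chromosome were set aside, 25941 control and 25519 knockdown peaks lay on the 6 arms (X, 4, 2L, 2R, 3L and 3R). The peaks of the knockdown list were narrower and stood higher over input, with a median width of 432 bp against 625 bp and a median deposited fold enrichment of 2.13 against 1.93. Peaks of 1 kb or more made up 13.6% of the knockdown list and 27.2% of the control list, and peaks of 3 kb or more numbered 146 and 649. The shortest peak was 124 bp in the knockdown and 156 bp in the control, so the smallest width that the caller reported also differed. Sequencing depth was not analysed here, and its part in any difference between the lists was not tested.

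The first question was where along genes the 2 lists differed. Each peak was placed by its midpoint, either within 500 bp of an end of a protein-coding gene, inside a gene beyond that, or in intergenic space. The gene table used here gives no strand, so the start of a gene and its 3′ end could not be told apart. Gene ends held 18.8% of control peaks (95% interval 18.3 to 19.2%) and 20.7% of knockdown peaks (20.2 to 21.2%). Gene interiors held 58.6 and 58.5%, and intergenic space held 22.6 and 20.8%. The difference at gene ends was small and changed sign with the window, since it was 1.98 percentage points at 500 bp, -0.77 at 250 bp and 3.35 at 1000 bp.

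By covered length, the control list took up 22.5% of gene end windows, 17.5% of gene interiors and 11.8% of intergenic space, and the knockdown list 16.6, 11.5 and 7.28%. The ratio of knockdown to control cover was thus 0.737 at gene ends, 0.660 in gene interiors and 0.616 between genes. The number of peaks had ratios of 1.09, 0.981 and 0.904 in the same order. Gene ends therefore had slightly more peaks in the knockdown list and less covered length. With control peaks trimmed by strength to the covered length of the knockdown list, the cover ratios were 0.999, 1.02 and 0.933.

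The placement of the peaks with the strongest statistical support differed more than that of all peaks. Peaks were ranked within each list by the deposited −log10 q, the caller's measure of how far a peak stands above background. In the lowest quintile, gene ends held 15.0% of control and 14.6% of knockdown peaks. In the highest quintile they held 24.8% (23.7 to 26.0%) of control and 39.1% (37.8 to 40.5%) of knockdown peaks. Among peaks with a −log10 q of at least 2, which made up 19.9% of the control and 20.1% of the knockdown list, 1285 of 5166 control peaks and 2005 of 5137 knockdown peaks lay at gene ends. The intergenic share of the highest quintile was 22.6% in the control against 16.0% in the knockdown. Ranking by the deposited fold enrichment gave a similar picture, with gene ends at 26.3 and 39.6% of the highest quintile.

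**Figure D1:**
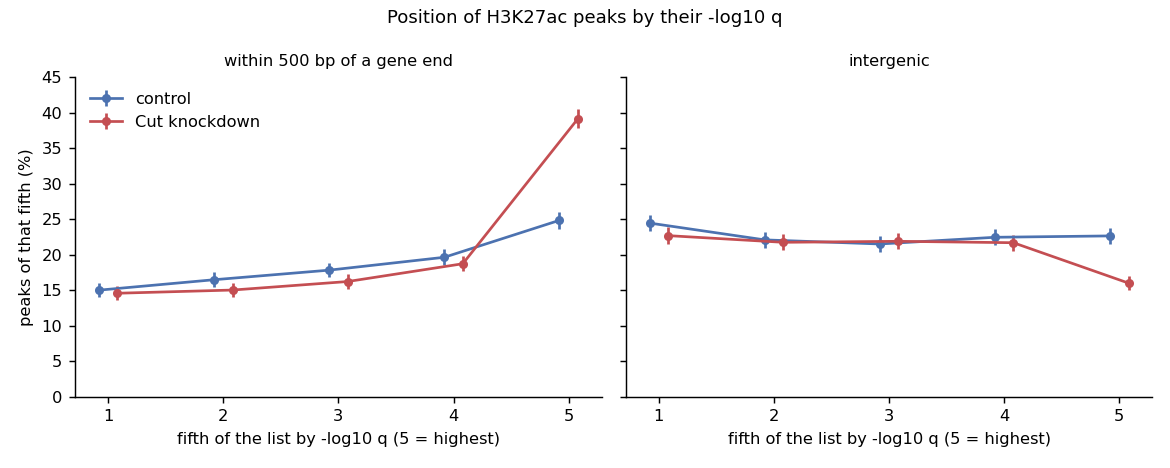
Share of H3K27ac peaks within 500 bp of a gene end (left) and in intergenic space (right), in %, by quintile of −log10 q within each list. Points are shares and bars their exact 95% intervals for counting error. The lists lie close together in the 4 lower quintiles and part in the highest, where gene ends held 24.8% of control and 39.1% of knockdown peaks.

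The shape of the mark around gene ends also differed between the libraries. Cover was averaged in 100 bp steps over 2167 ends of genes of at least 4 kb with no other protein-coding gene within 2 kb outside. In the control, cover was highest in the 100 bp just outside the gene end, at 18.6%. The knockdown had 8.99% there and 11.2% in the steps from 100 to 300 bp inside. Between 200 and 500 bp outside, cover was 13.6% in the control against 6.10% in the knockdown, and between 200 and 500 bp inside it was 15.7 and 11.1%. Cover at 1 to 2 kb outside was 10.8% in the control against 6.89% in the knockdown. Between 200 and 500 bp outside, the control thus had more cover than farther out and the knockdown had less, whereas in the 100 bp next to the end both had more. The ratio of knockdown to control was lowest, at 0.432, between 200 and 300 bp outside, and was 0.709 at the same distance inside.

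Outside cover divided by inside cover at 200 to 500 bp was 0.867 in the control against 0.548 in the knockdown. Each ratio is taken within 1 list, and it stayed between 0.723 and 0.867 in the control and between 0.315 and 0.582 in the knockdown across the 7 other ways of choosing peaks or ends that were run. The lowest knockdown value came from peaks with a −log10 q of at least 2. Over all 27844 ends of protein-coding genes, both lists had a dip at the end itself and a maximum inside. In the 100 bp just outside the end, cover was 19.5% in the control against 10.7% in the knockdown, and between 400 and 500 bp inside it was 30.8 and 26.7%. The dip was thus deeper in the knockdown list.

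**Figure D2:**
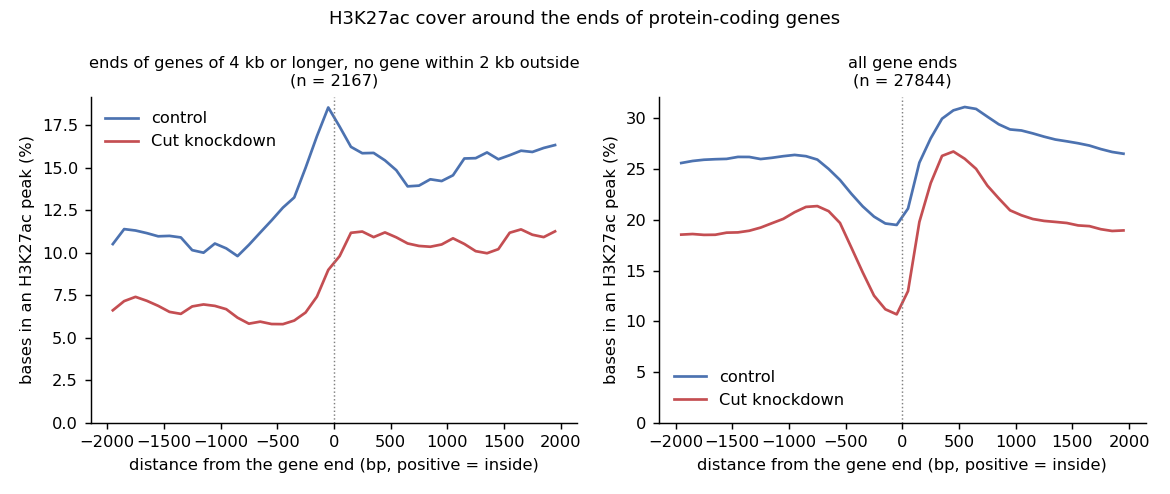
Share of bases inside an H3K27ac peak, in %, by distance from the gene end in 100 bp steps, with positive distances inside the gene. The left panel shows 2167 ends of genes of at least 4 kb with no gene within 2 kb outside, and the right panel all 27844 ends. Control cover at lone ends was highest at 18.6% just outside the end, where the knockdown had 8.99%, and at all ends the dip just outside reached 19.5 and 10.7%.

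Peaks at lone gene ends were also compared one to one. At 260 such sites a single control peak and a single knockdown peak overlapped with the mean of both midpoints within 500 bp of the end. The control peak spanned the end itself at 175 sites (67.3%, interval 61.2 to 73.0%) and the knockdown peak at 128 (49.2%, 43.0 to 55.5%). The knockdown peak lay wholly inside the gene at 84 sites (32.3%) and the control peak at 46 (17.7%). Wholly outside the gene lay the knockdown peak at 48 sites (18.5%) and the control peak at 39 (15.0%). The narrower knockdown peaks thus lay more often on either side of the end. The median reach outside the end was 290 bp in the control against 118 bp in the knockdown, and the median reach inside was 343.5 and 310 bp. The outer edges thus differed more than the inner ones.

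The second question was which peaks the lists shared. Of control peaks at gene ends, 68.7% (67.4 to 70.0%) overlapped a knockdown peak by at least 1 bp, against 58.9% (58.1 to 59.7%) in gene interiors and 48.2% (46.9 to 49.4%) between genes. Of knockdown peaks, 72.8, 66.6 and 58.9% overlapped a control peak in the same order. Cover had the same order of positions, at 16.6, 11.5 and 7.28% in the knockdown list and 22.5, 17.5 and 11.8% in the control. A denser list is met by more overlaps, and how far this sets the shared shares was not tested. Shared peaks were wider. Control peaks with a counterpart had a median width of 765 bp and those without one 487 bp, and the knockdown medians were 499 and 315 bp. The order of the 3 positions held in each width quintile of each list. By −log10 q it held in each control quintile, but in the middle knockdown quintile gene ends (68.1%) lay below interiors (70.2%). In the widest control quintile the shares were 90.8, 84.9 and 77.0%, and in the narrowest they were 51.2, 38.4 and 33.9%.

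**Figure D3:**
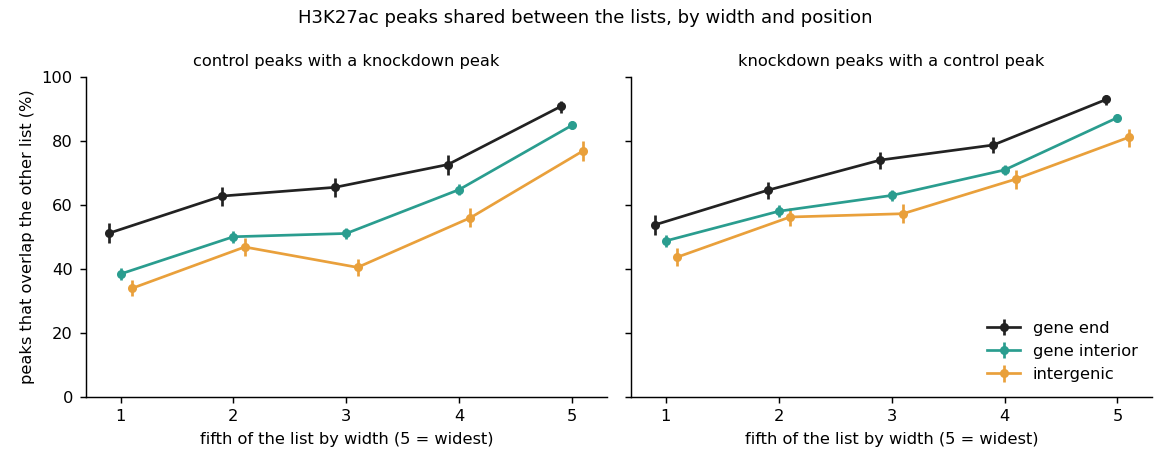
Share of H3K27ac peaks that overlapped a peak of the other list, in %, by width quintile within each list and by position. Points are shares and bars exact 95% intervals for counting error. Gene ends lie above gene interiors, and gene interiors above intergenic space, in every quintile of both lists.

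The width of shared sites was then compared at the 12600 sites with 1 peak of each list. The knockdown peak was narrower at 8226 sites (65.3%) and wider at 4349 (34.5%). The median widths were 676 bp in the control against 488 bp in the knockdown, and the median of the log2 ratio of knockdown to control width was -0.28, with quartiles at -1.16 and 0.20. The knockdown peak lay inside the control peak at 33.7% of sites and the reverse held at 13.2%. Control peaks that overlapped 2 or more knockdown peaks numbered 1868, with up to 9 in 1 control peak, against 407 knockdown peaks that overlapped 2 or more control peaks. Wide control sites were thus split in the knockdown list more often than the reverse.

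With position taken from the control peak, the median log2 ratio was -0.11 at gene ends, -0.32 in gene interiors and -0.32 between genes. With position taken from the knockdown peak it was -0.26, -0.27 and -0.32, and from the mean of both midpoints -0.17, -0.30 and -0.32. The smaller narrowing at gene ends therefore depended in good part on which list placed the site. The size of the control peak had a similar effect, since the median was 0.20 in the narrowest and -1.12 in the widest quartile of control width. Across quartiles of the mean width of both peaks it stayed between -0.33 and -0.24.

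**Figure D4:**
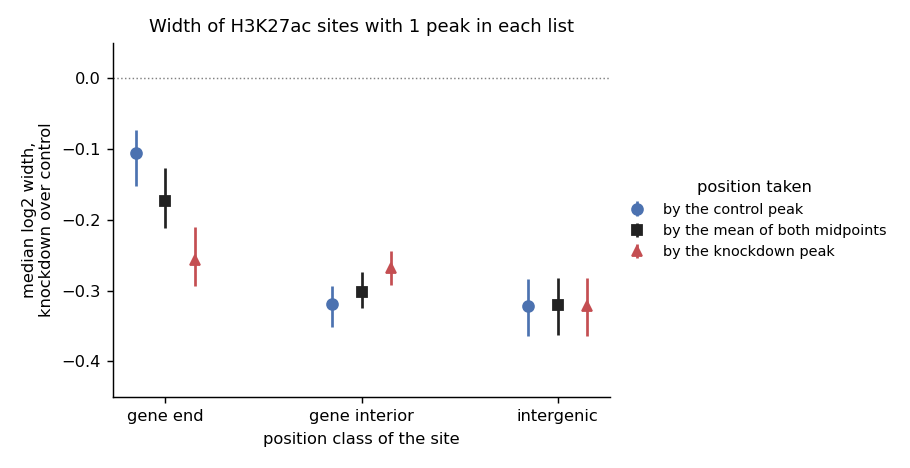
Median log2 ratio of knockdown to control peak width at H3K27ac sites with 1 peak in each list, by position class, with position taken in 3 ways. Bars are 95% intervals of the median over sites. All medians lie below 0, and the value at gene ends moves from -0.11 to -0.26 with the list that sets the position.

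Among gene ends with at least 200 bp in both lists, the sites that narrowed most included those of dcma (2778 bp in the control against 214 bp in the knockdown), mAChR-C, a muscarinic acetylcholine receptor gene (2488 and 223 bp), and prod, which encodes a satellite DNA binding protein (2784 and 267 bp). The deposited fold enrichment of these peaks was between 1.96 and 2.12 in both lists. Such values lie above the median of the control list (1.93) and below that of the knockdown list (2.13). The site that widened most lay at the ends of CG7766 and Bx42, the fly SKIP homologue, with 296 bp in the control against 2479 bp in the knockdown. Others were those of blow, a gene of myoblast fusion (275 and 2138 bp), of Pp4-19C, a protein phosphatase gene, and Obp19d (224 and 1503 bp), and of repo, the homeobox gene of glial fate (262 and 1573 bp).

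Over the 13922 protein-coding genes of the 6 arms, 7694 (55.3%) had a peak within 500 bp of an end in both lists. A peak in the control only was found at 2073 genes, a background of 14.9%, and in the knockdown only at 1401, a background of 10.1%. The other 2754 (19.8%) had none. Which list had more genes of its own depended on the peaks used, since the counts were 1182 and 2463 when a −log10 q of at least 2 was required and 1296 and 3032 at the same covered length. Of the 11168 genes with an end peak in either list, 68.9% had one in both. Short genes were the least often marked, since 32.8% of genes up to 1 kb had no end peak in either list. Long genes differed the most, with 20.8% of genes over 20 kb marked in the control only, against 13.6% of genes of 2 to 5 kb.

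Among the 7406 genes of at least 2 kb, 2070 had a peak at both ends in the control against 1677 in the knockdown. Of the 2070, both ends were marked in the knockdown at 1056, 1 end at 824 and neither at 190. Where each list marked a single end, it was the same end at 1608 of 1880 genes (85.5%, interval 83.9 to 87.1%).

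The X chromosome differed from the 4 long autosomal arms. On X, 335 of 2197 genes (15.2%, 13.8 to 16.8%) had an end peak in the knockdown only and 302 (13.7%) in the control only. On each of 2L, 2R, 3L and 3R the control only share, between 14.3 and 15.7%, was above the knockdown only share, between 8.43 and 9.51%. The ratio of knockdown to control cover was 0.821 on X and between 0.625 and 0.663 on these 4 arms, with 0.801 on chromosome 4. Set against all other arms, the cover ratio on X was 1.27 times as high, and between 1.15 and 1.501 times as high in the 6 other choices of peaks that were run. On chromosome 4, which is largely heterochromatic, 70 of 80 genes had no end peak in either list.

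Gene interiors, the part of a gene more than 500 bp from its ends, existed for 11243 genes. Of these, 6807 had interior peaks in both lists, 1475 in the control only (a background of 13.1%), 1058 in the knockdown only (9.41%) and 1903 in neither. Interior cover was smaller in the knockdown at 5971 genes and larger at 2880. The ratio of knockdown to control interior cover was 0.827 for genes of 1 to 2 kb and 0.632 for genes over 20 kb.

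The largest interior losses among genes with an end peak in both lists were found in long genes. The gene dpy, whose very large product anchors epidermis to cuticle, had 45.9 kb of interior cover in 33 control peaks and 20.4 kb in 39 knockdown peaks. The POU factor gene pdm3 had 22.4 and 7.62 kb, and shot, the spectraplakin that links actin to microtubules, had 20.8 and 8.59 kb. The glucose transporter gene Glut1 had 16.6 and 5.25 kb, and sima, the fly hypoxia-inducible factor, had 15.7 and 4.80 kb. With peaks of a fold enrichment of at least 2, the differences of dpy and Glut1 had the opposite sign, at 8.94 and 1.12 kb more in the knockdown, those of pdm3 and shot shrank to -0.17 and -0.09 kb, and that of sima was -4.63 kb. When a −log10 q of at least 2 was required, the differences were -0.12 kb for dpy, -3.60 kb for pdm3, -0.43 kb for shot, -1.43 kb for Glut1 and -2.15 kb for sima.

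The largest interior gains were smaller. The receptor tyrosine kinase gene smal had 1.99 kb in the control against 6.37 kb in the knockdown, the COE factor gene kn had 0.697 and 3.79 kb, and Actn, which encodes alpha-actinin, had 1.69 and 4.575 kb. The glycine transporter gene GlyT had 4.76 and 7.48 kb, but a difference of -2.19 kb when a −log10 q of at least 2 was required. Genes with several control peaks in the interior and none in the knockdown included Hml, hemolectin, a marker of larval and embryonic hemocytes, with 4.89 kb in 3 peaks, Swim with 1.97 kb in 5 peaks, and Tango1, a gene of collagen secretion, with 2.36 kb in 3 peaks. Swim had 0.375 kb at its ends in the control and no end peak in the knockdown, and Hml had no end peak in either list. Their interior differences were 0 when a −log10 q of at least 2 was required, as was that of kn. With a fold enrichment of at least 2 the difference was 0 for Hml and -0.24 kb for Swim.

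The gene targeted by the knockdown, ct (X:7608428-7678859, dm6), had no peak within 500 bp of an end in either list. Its interior held 1.01 kb in 3 control peaks and 2.42 kb in 5 knockdown peaks, and a peak list measures no transcript. The cohesin subunit gene SA1 (2L:6950421-6954586) had 1.15 kb at its ends in the control against 1.00 kb in the knockdown. Of the 4 activators of cell death in neuroblasts, hid had 0.678 kb at its ends in the control against 0.617 kb in the knockdown, with 1.18 and 0.271 kb in its interior. A knockdown peak covered 0.109 kb at the ends of grim, and rpr and skl had no peak in either list.

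Gene classes were compared next, over 34 lists of at least 10 genes. Over all genes, 70.2% had an end peak in the control against 65.3% in the knockdown, a difference of -4.83 percentage points. Of the 34 lists, 19 had more members marked in the control only and 12 more in the knockdown only, with 3 equal. Absolute differences moved with the choice of peaks, because the difference over all genes was 26.5 points with peaks of a fold enrichment of at least 2 and 12.5 points at the same covered length. Each list was therefore also set against all genes within the same setting. Of the 34 lists, 12 lay on the same side of all genes in all 10 settings, 4 above and 8 below. The settings are not independent. With peaks joined, without chromosome 4 and with equal peak numbers the difference over all genes stayed at -4.83, -4.81 and -4.31 points. When a −log10 q of at least 2 was required, some lists lay below only because all genes differed by 9.20 points. Their own difference was 0, as for UDP glycosyltransferases, muscle and mesoderm, and the gustatory, odorant and ionotropic receptors. The lists describe these libraries, and no list was tested.

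**Figure D5:**
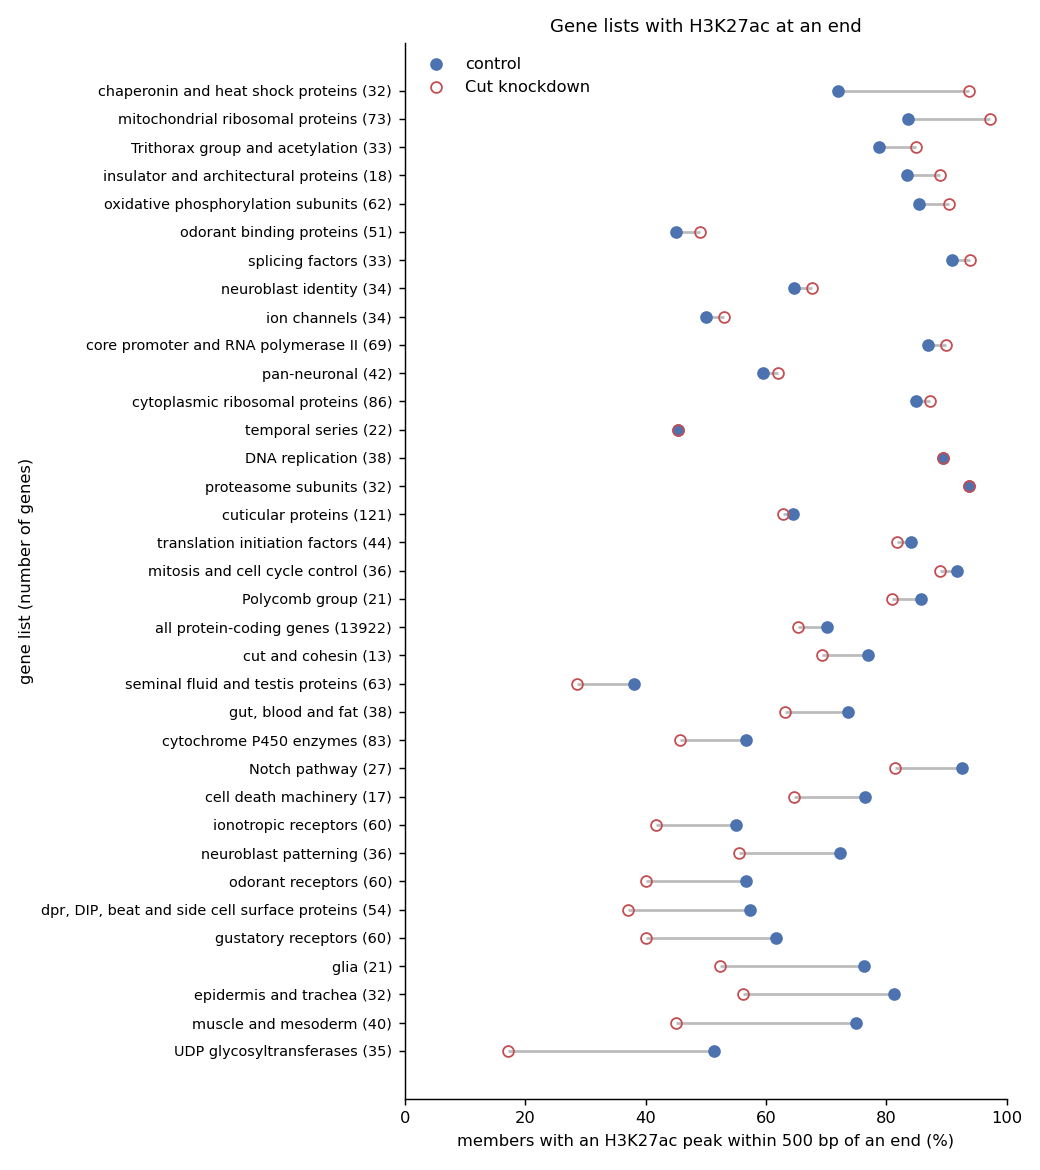
Share of genes of each list with an H3K27ac peak within 500 bp of an end, in %, in the control (filled) and the Cut knockdown (open), for the 34 lists of at least 10 genes and for all protein-coding genes. Lists are ordered by the difference. Chaperonin and heat shock proteins went from 71.9 to 93.8%, and UDP glycosyltransferases from 51.4 to 17.1%.

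The 4 lists that lay above all genes in every setting were chaperonin and heat shock proteins, mitochondrial ribosomal proteins, respiratory chain and ATP synthase subunits, and DNA replication. Of 32 chaperonin and heat shock protein genes, which encode protein folding factors, 22 had an end peak in both lists, 1 in the control alone and 8 in the knockdown alone. The chaperonin subunit gene CCT4 (2L:12690336-12692934) had no control peak at its ends and 0.588 kb in the knockdown. Its partner CCT5 was marked in both lists, with 1.30 kb in the control against 1.05 kb in the knockdown under peaks of a fold enrichment of 2.41 and 3.46. Hsp60A, a mitochondrial chaperonin, was the member marked in the control only, over 0.262 kb.

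Of 73 mitochondrial ribosomal protein genes, 61 were marked in both lists, none in the control alone and 10 in the knockdown alone. The share was 83.6% in the control against 97.3% in the knockdown. The gene mRpL37 (3R:10782563-10784092) had 0.411 kb at its ends in the knockdown and none in the control, and mRpL4 had 0.413 kb in the control against 0.756 kb in the knockdown. Of 62 genes of the respiratory chain and ATP synthase, 51 were marked in both, 2 in the control alone (3.23%) and 5 in the knockdown alone (8.06%). Over all genes these shares were 14.9 and 10.1%. ND-24, a subunit of complex I, had 0.571 kb in the knockdown only, whereas ND-AGGG had 0.178 kb in the control only. Of 38 DNA replication genes, 31 were marked in both and 3 in each list alone (7.89%), a difference of 0 points. In this list and the respiratory chain list the knockdown only share was thus below that of all genes. PCNA, the sliding clamp, had 0.350 kb in the knockdown only, and dup, the fly Cdt1, had 0.635 kb in the control only.

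Most members of other lists of housekeeping genes were marked in both lists. These lists lay above all genes in most settings and below them in 1 or 2. Cytoplasmic ribosomal protein genes were marked in both at 69 of 86, in the control only at 4 and in the knockdown only at 6. Their covered length at gene ends had a ratio of 0.953, and that in their interiors 1.31, against 0.736 and 0.661 over all genes. The end shared by RpL28 and its neighbour eIF1 carried a fold enrichment of 2.66 in the control against 4.11 in the knockdown. Proteasome subunit genes were marked in both at 28 of 32, and their covered length at ends had a ratio of 1.08. Splicing factor genes were marked in both at 30 of 33 and in the control only at none. Among 69 genes of RNA polymerase II, general factors and Mediator, 56 were marked in both, and Tbp, the TATA binding protein gene, had 1.00 kb at its ends in the knockdown and none in the control.

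The 8 lists that lay below all genes in every setting were the UDP glycosyltransferases, muscle and mesoderm, glia, the gustatory, odorant and ionotropic receptors, the cytochrome P450 enzymes, and the seminal fluid and testis proteins. Of 35 UDP glycosyltransferase genes, which encode conjugating enzymes of detoxification, 5 were marked in both lists, 13 in the control alone and 1 in the knockdown alone. Their covered length at gene ends had a ratio of 0.227. Ugt37B1 (2L:6225048-6226842) had 0.247 kb at its ends and 0.768 kb in its interior in the control against none in the knockdown. Of 83 cytochrome P450 genes, 30 were marked in both, 17 in the control alone and 8 in the knockdown alone, with Cyp4e3 among the control only genes (0.443 kb) and Cyp9f2 among the knockdown only genes (0.160 kb).

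Chemosensory receptors are expressed in small sets of differentiated sensory neurons. The control marked 56.7% of odorant, 61.7% of gustatory and 55.0% of ionotropic receptor genes at an end, and the knockdown 40.0, 40.0 and 41.7%. Among 60 gustatory receptor genes, 17 were marked in the control alone and 4 in the knockdown alone, and covered length at ends had a ratio of 0.344. Gr85a had 1.00 kb at its ends in the control against none in the knockdown. A peak counts for every gene within 500 bp of it, so a peak of a neighbouring gene counts here too. The direction in these families depended on the peaks used. With a fold enrichment of at least 2 the knockdown was ahead by 16.7, 13.3 and 20 points for odorant, gustatory and ionotropic receptors and by 14.3 and 15.7 points for UDP glycosyltransferases and cytochrome P450 enzymes, against 26.5 points over all genes. At the same covered length the differences were 5, -1.67, 10, 0 and 12.05 points in the same order, against 12.5. When a −log10 q of at least 2 was required they were 0 for all but the cytochrome P450 enzymes, at -3.61 points, against 9.20 over all genes.

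Markers of other embryonic tissues that the sort could hold were less often marked in the knockdown list as deposited, and this depended on the peaks used. As deposited the differences were -30 points for muscle and mesoderm, -23.8 for glia, -25 for epidermis and trachea and -10.5 for gut, blood and fat. Over all genes the difference was -4.83 points. With a fold enrichment of at least 2 the knockdown was ahead by 17.5 points for muscle and mesoderm, 9.52 for glia, 18.75 for epidermis and trachea and 28.9 for gut, blood and fat, against 26.5 over all genes. When a −log10 q of at least 2 was required, the differences were 0 for muscle and mesoderm and -19.0 points for glia. They were -18.75 points for epidermis and trachea and 7.89 for gut, blood and fat, against 9.20 over all genes. At the same covered length they were 0, -4.76, -3.12 and 15.8 points, against 12.5 over all genes. With a peak anywhere on the gene they were -10 points, -9.52, 0 and 0, against -3.23 over all genes. Of 40 muscle and mesoderm genes, 18 were marked in both lists, 12 in the control alone and none in the knockdown alone. The control only share was thus 30%, against 14.9% of all genes, and 10.1% of all genes were marked in the knockdown only. The control only members included bap and tin, homeobox genes of visceral muscle and heart (1.00 and 0.550 kb at their ends), slou, a homeobox gene of muscle founder cells (1.07 kb), and the sarcomere genes sls and Prm (0.377 and 0.465 kb). The sarcomere gene Mhc, in contrast, had 0.306 kb in the control against 0.728 kb in the knockdown. Msp300, a giant nesprin of muscle, had no end peak in either list and 20.2 and 7.76 kb of interior cover. The summed cover of the list had a ratio of 0.474 at ends and 0.595 in interiors.

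Of 21 glial genes, 11 were marked in both lists, 5 in the control alone (23.8%) and none in the knockdown alone. The factor gene pnt had 0.644 kb at its ends in the control only, as had gcm, the switch gene of glial fate (0.845 kb). The list member drpr was marked in both, with 0.331 kb in the control against 0.221 kb in the knockdown. In contrast, the end peak of the glial fate gene repo was 262 bp wide in the control against 1573 bp in the knockdown. Of 32 epidermis and trachea genes, 16 were marked in both, 10 in the control alone (31.25%) and 2 in the knockdown alone (6.25%). The FGF gene bnl had 0.286 kb in the control only and its receptor gene btl 0.173 kb in the knockdown only. Of 38 genes of gut, blood and fat, 21 were marked in both, 7 in the control alone (18.4%) and 3 in the knockdown alone (7.89%). Over all genes the control only and knockdown only shares were 14.9 and 10.1%, and those of gut, blood and fat lay near them. How far the share of other cell types in each sort bears on these values was not tested.

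Genes of neuroblasts and neurons were spread over all classes. Of 34 neuroblast identity genes, 18 were marked in both lists, 4 in the control alone (11.8%) and 5 in the knockdown alone (14.7%). Over all genes these shares were 14.9 and 10.1%. The list had a ratio of cover of 0.852 at ends and 0.904 in interiors. The driver gene wor had 1.00 kb at its ends in the control against 1.06 kb in the knockdown, dpn, a basic helix-loop-helix repressor of neuroblasts, had 0.222 and 0.219 kb, and mira, an adaptor of asymmetric division, had 0.462 and 0.430 kb. The neuroblast genes ase and pon had 0.472 and 0.496 kb in the knockdown only, and par-6, of the apical polarity complex, had 0.422 kb in the knockdown only. Its partner baz had 0.555 kb in the control only, and the list member dlg1 had 0.064 kb in the control only. The difference of the list was 2.94 points as reported and -5.88 when a −log10 q of at least 2 was required. Of 42 pan-neuronal genes, 22 were marked in both, 3 in the control alone (7.14%) and 4 in the knockdown alone (9.52%). The vesicular acetylcholine transporter gene VAChT had 0.708 kb in the knockdown only, and dimm, a regulator of peptidergic neurons, had 0.473 kb in the control only.

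Neuroblast patterning genes, which give neuroblasts their position in the embryo, were marked in both lists at 16 of 36, in the control only at 10 and in the knockdown only at 4. The control only and knockdown only shares were 27.8 and 11.1%, against 14.9 and 10.1% of all genes. The head gene oc had 0.377 kb in the control only. All 8 Hox genes had an end peak in the control and 4 of them in the knockdown. The shares over all genes were 70.2 and 65.3%. With fewer than 10 genes, the Hox list was not run with other choices of peaks, so its dependence on them was not tested. The ratio of knockdown to control cover for Hox genes was 0.407 at ends and 0.884 in interiors, against 0.736 and 0.661 over all genes. Interior cover was smaller in the knockdown at 7 of the 8. Of 27 Notch pathway genes, 22 were marked in both, 3 in the control alone (11.1%, below the 14.9% of all genes) and none in the knockdown alone. Among them neur, a ubiquitin ligase of Delta, had 0.732 and 0.687 kb at its ends and 2.41 and 4.78 kb in its interior, and the metalloprotease gene kuz had 0.721 kb at its ends in the control only. Of 22 genes of the temporal series, 7 were marked in both and 3 in each list alone (13.6%). The castor gene cas had 0.170 kb in the knockdown only and the ecdysone receptor gene EcR 0.156 kb in the control only, with 16.999 and 5.62 kb in the interior of EcR.

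Long genes of neuron surfaces had less cover in the knockdown list at their ends and in their interiors. The dpr, DIP, beat and side families encode immunoglobulin domain proteins that pair neurons. Of their 54 members, 19 had an end peak in both lists, 12 in the control alone and 1 in the knockdown alone, and covered length had a ratio of 0.488 at ends and 0.514 in interiors. Interior cover was smaller in the knockdown at 44 members (81.5%), against 53.1% of all genes and 81.1% of genes over 20 kb, so the share was close to that of long genes in general. The sum went from 283.8 kb to 145.7 kb, while the ratio over genes over 20 kb was 0.632. The longest unmarked member at its ends, DIP-lambda, had 26.5 kb of interior cover in the control against 7.67 kb in the knockdown, and dpr6 had 19.1 and 6.64 kb. Ion channel genes showed a similar ratio, with a sum of 132.1 and 64.7 kb and less cover in the knockdown at 26 of 34 (76.5%). Among pan-neuronal genes, Snap25, a gene of synaptic vesicle fusion, had 29.8 and 9.79 kb of interior cover.

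Genes of chromatin regulators were mostly marked in both lists. The Polycomb group differed from all genes by 0.065 percentage points, so its counts do not set it apart. Of 21 Polycomb group genes, 15 were marked in both, 3 in the control alone and 2 in the knockdown alone, and of 33 genes of the Trithorax group and acetylation the counts were 24, 2 and 4. The nucleosome remodeller gene Iswi had 1.52 kb at its ends and 1.73 kb in its interior in the control against none in the knockdown. The acetyltransferase gene mof had 0.522 kb at its ends in the knockdown only. Among 18 insulator and architectural protein genes, 15 were marked in both. The GAGA factor gene Trl had 0.313 kb in the knockdown only, and mod(mdg4) carried a fold enrichment of 2.22 in the control against 4.42 in the knockdown. Of 17 genes of the cell death machinery, 10 were marked in both. A further 3 were marked in the control alone (17.6%, against 14.9% of all genes) and 1 in the knockdown alone (5.88%, against 10.1%). The gene egr had 0.319 kb at its ends in the control only, and the effector caspase gene Drice had 0.351 kb in the knockdown only.

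The control H3K27me3 list was set beside the end classes. H3K27me3 covered at least 50% of the gene body at 3.38% (2.64 to 4.25%) of genes marked in the control only, 2.05% of genes marked in both, 0.857% (0.443 to 1.49%) of genes marked in the knockdown only and 1.60% of unmarked genes, against 2.04% of all genes. At this cut, genes marked in the control only were thus covered by H3K27me3 somewhat more often than all genes. Genes marked in the knockdown only were covered less often at this cut. The shares at the 50% cut rest on 70, 158, 12 and 44 genes. Any H3K27me3 cover was found at 16.0% of control only genes and 10.6% of knockdown only genes, against 11.0% of all genes. By that measure control only genes again lay above all genes, whereas knockdown only genes lay close to them.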

How the data were processed

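Fragmentation used micrococcal nuclease (15 U) and sonication (3 min), and 1 µg of H3K27ac antibody was used per precipitation with input as control, per the labels' protocols. One catalogue number stands in the labels for both the H3K27me3 and the H3K27ac antibody. FastQC, Bowtie2, MACS2, SICER and the build dm6 are named in the submitters' processing notes, with no settings. The authors deposited 1 broad peak list per library. Columns 1 to 3 are coordinates, and the other deposited columns hold a score per peak, the fold enrichment ratio over input, and the −log10 p and −log10 q of each peak. These are the authors' own values. They were used to rank peaks within a list, to filter both lists at the same cut and to describe peaks. Fold enrichments printed for both lists at a site were not adjusted for the higher median of the knockdown list (2.13 against 1.93).

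Protein-coding genes were taken from the RefSeq gene table for dm6 (13922 on 6 arms). It holds neither strand nor sequence, so starts were not separated from 3′ ends, and the planned search for promoter motifs was not run. Peaks were placed by midpoint, overlaps were counted from 1 bp, and shares have exact Clopper-Pearson intervals at 95%. The interval code was checked on simulated data. Python 3.11.15, pandas 2.3.3, numpy 2.4.6 and SciPy 1.17.1 were used. With 1 library per group there is no replicate error and no test.

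Members, lists and rules were chosen with earlier results of these data known. Lists built from symbol patterns were corrected for misassigned symbols after values were seen, and 6 symbols had no match. Genes are named by rule: ct, SA1, hid, grim, rpr and skl, the 6 largest interior gains and losses, the 6 most narrowed and most widened end sites, the 6 genes with the most control interior peaks and none in the knockdown, and for each list of at least 10 genes up to 4 members (highest fold among genes marked in both or in a single list, longest in neither). From these, those with a known role are described. The other members named in the lists of muscle, glia and neuroblasts (bap, tin, slou, sls, Prm, Mhc, gcm, wor, dpn, mira, ase, pon and baz) were chosen after their values were seen.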

Additional observations from a re-analysis of the deposited data

How the results depend on the processing

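Every value rests on where the peak caller drew its edges in 1 library per group, and depth was not analysed here. Trimming to the same covered length removed control peaks only, and a fold enrichment of at least 2 kept 32.6% of control and 80.3% of knockdown peaks, so both favour the knockdown list. The alternatives also included equal peak numbers, peaks closer than 500 bp joined and leaving out chromosome 4, and none of these 3 changed a direction beside that of the cuticular proteins, which went from -1.65 to 0.83 points with equal peak numbers. Of the 34 lists, 31 differed from 0 as reported. The lists named below as turned are those that differed by at least 10 points as reported, and the number of all lists that changed sign is given with them. The widths by other positions, cover beside lone gene ends and cover on X were examined after the data were seen.

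With −log10 q of at least 2, the share of peaks at gene ends differed by 14.2 percentage points, the cover ratio at gene ends was 1.19, and 50.4, 22.7 and 16.8% of control peaks (gene ends, interiors, intergenic) had a knockdown peak. The median log2 width was -0.16 over all sites, -0.019 at gene ends and -0.16 between genes. Genes numbered 1182 in the control alone and 2463 in the knockdown alone, and 10 lists had more control only members. Outside over inside cover in the knockdown was 0.315. Of the lists, 7 changed sign, among them gut, blood and fat (7.89 points) and, from smaller values, pan-neuronal (-16.7) and neuroblast identity (-5.88), and 7 became 0. GlyT turned to -2.19 kb.

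At the same covered length the share at gene ends differed by -0.10 points, cover ratios were 0.999, 1.02 and 0.933, and shared shares were 73.8, 64.4 and 52.05%. The median log2 width in interiors was -0.36. Genes numbered 1296 and 3032, and 4 lists had more control only and 27 more knockdown only members. Of the lists, 12 changed sign and 3 became 0. Those that turned were odorant receptors (5 points), ionotropic receptors (10), cytochrome P450 enzymes (12.05), Notch pathway (7.41), gut, blood and fat (15.8) and cell death machinery (5.88).

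With a fold enrichment of at least 2 the share at gene ends differed by -1.04 points, cover ratios were 1.56, 1.70 and 1.62, shared shares were 72.1, 57.7 and 41.7%, and median log2 widths were -0.20 over all sites, -0.063 at ends and -0.27 in interiors. Genes numbered 870 and 4565, and 0 and 34 lists had more control only or knockdown only members. Of the lists, 19 changed sign. Those that turned, in points, were odorant (16.7), gustatory (13.3) and ionotropic receptors (20), cytochrome P450 enzymes (15.7), UDP glycosyltransferases (14.3), dpr, DIP, beat and side (12.96), neuroblast patterning (25.0), Notch pathway (33.3), glia (9.52), muscle and mesoderm (17.5), epidermis and trachea (18.75), gut, blood and fat (28.9) and cell death machinery (5.88). The interior difference was 8.94 kb for dpy and 1.12 kb for Glut1.

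With gene ends of 250 and 1000 bp the share at ends differed by -0.77 and 3.35 points, 60.3 and 56.5% of interior control peaks were shared, and 7 lists had more knockdown only members in each. Under an overlap of at least 50% of the shorter peak, shared shares were 61.7, 52.1 and 42.0% and median log2 widths -0.30 over all sites and -0.37 in interiors. Under a reciprocal overlap of at least 50% the shares were 32.4, 25.4 and 23.2% and the widths -0.076 over all sites, -0.035 at ends, -0.094 in interiors and -0.090 between genes. With any number of peaks at a site the widths were -0.35, -0.21, -0.40 and -0.37. By the knockdown peak they were -0.26 at ends and -0.27 in interiors, and by the mean of both midpoints -0.17 at ends. With a peak anywhere on the gene 4 lists changed sign, of which the cell death machinery (5.88 points) had differed by at least 10 points, and 4 became 0. With gene ends of 250 and 1000 bp 8 and 3 lists, all with smaller differences, changed sign, and 1 and 3 became 0. For control peaks the order of shared shares, gene ends over interiors over intergenic space, held in each setting run. Cover of the knockdown list as deposited had the same order, and its part in the shared shares was not tested. The cause of these shifts was not tested. Beside those printed, 46 list differences and 32 interior differences of single genes moved, and 239 and 73 moved less or not at all. Both groups of list differences hold some that changed sign. No paired analysis was possible because there was 1 library per group.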
